A study of Mus musculus with 13 samples.

Results

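The genes described here are the glucocorticoid receptor gene Nr3c1 and 6 genes known to be induced through it, Fkbp5, Tsc22d3, Per1, Dusp1, Sgk1 and Ddit4. They were taken by symbol from the gene lists of both experiments, and all 7 of 7 were found in each, among 57010 listed genes. Transcripts were counted as unique molecular identifiers (UMIs) in single cells of mouse tissue with the split-pool barcoding kits of Parse Biosciences, in which the well of the first barcoding round tells which tissue sample a cell came from. The Parse WT library held 4 thymic lobes of 2 female C57BL/6N mice aged 2 months and 16 other samples. The Parse Mini library held 4 further lobes, from 2 mice described alike and labelled as control. For the WT library the labels name the tissues thymus and spleen and the treatments control and chronic stress, and they do not say which sample had which, so the 16 other samples, which the study describes as not thymic, were not grouped and are called by the names in the cell table (CVS_C, CVS_S and YD_C with a number). Each mouse gave 2 lobes, but the names in the cell tables (1 to 4 in the WT library) do not say which WT lobes shared a mouse, nor whether the number or the letter of a Mini lobe marks the mouse, so p-values over lobes measure the spread between lobes and are too small for a statement about mice. The 10x libraries were not analysed here.

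The glucocorticoid receptor is held in the cytoplasm by a chaperone complex, binds the adrenal hormone corticosterone, and moves to the nucleus, where it acts as a transcription factor. Fkbp5 is an immunophilin of that complex that lowers the receptor's affinity for the hormone, and since the receptor also induces Fkbp5, the pair forms a feedback loop. Thymocytes at the double-positive (DP) stage are known for dying when glucocorticoid levels rise, and the thymus shrinks under stress. Tsc22d3 encodes GILZ, an anti-inflammatory leucine zipper protein, Per1 a repressor of the circadian clock, Dusp1 a phosphatase of MAP kinases, Sgk1 a kinase that regulates ion transport and survival, and Ddit4 an inhibitor of mTORC1. Per1, Dusp1 and Ddit4 are also known to respond to other signals, such as cyclic AMP, mitogens and energy stress.

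In the annotation GENCODE M21 on GRCm38 (mm10), the gene identifiers of all 7 members matched their symbols. Fkbp5 lies at chr17:28399094-28517527, Tsc22d3 at chrX:140539528-140600659, Dusp1 at chr17:26505590-26562128 and Ddit4 at chr10:59949669-59951834, all on the minus strand, as is Nr3c1. Per1 at chr11:69095217-69109960 and Sgk1 at chr10:21882184-21999903 lie on the plus strand. Spans differ widely, from 2.17 kb for Ddit4 to 118 kb for Fkbp5 and Sgk1, and levels are given as CPM, the UMIs of a gene scaled to a common total of UMIs outside ribosomal RNA, which are not corrected for length. Per kilobase of exon, the mean level in double-negative (DN) thymocytes of the WT lobes was highest for Fkbp5 (180 CPM per kb of exon) and Nr3c1 (129 CPM per kb of exon), followed by Per1 (46.7), Ddit4 (25.2), Tsc22d3 (13.5), Dusp1 (8.11) and Sgk1 (1.21). Per kilobase of the whole span the order changed, with Ddit4 (20.4 CPM per kb of span) and Per1 (17.8 CPM per kb of span) above Fkbp5 (14.4) and Nr3c1 (9.07). Sgk1 was lowest on both scales.

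Promoter sequences, 250 bases before each annotated start, were available from RefSeq (GRCm38.p6) for 6 of the 7 members, with 14 starts among them. They are shown for the 3 members whose windows held a long match to a known element, since Per1 and Dusp1 stood out together in 1 of the other samples and Sgk1 differed most between B and T cells. The motifs were searched on both strands: the half-site of the receptor, AGAACA, its palindrome, in which the half-site and its reverse complement stand 3 bases apart, and the cyclic AMP response element TGACGTCA with its 7-letter part TGACGTC. The 7-letter part overlaps the full element, and the half-site overlaps the palindrome. Capitals mark the palindrome in the Sgk1 line and the 7-letter part in the Per1 line and the upper Dusp1 line. In the lower Dusp1 line they mark the full cyclic AMP element.
Sgk1, chr10:21993640-21993889, plus strand: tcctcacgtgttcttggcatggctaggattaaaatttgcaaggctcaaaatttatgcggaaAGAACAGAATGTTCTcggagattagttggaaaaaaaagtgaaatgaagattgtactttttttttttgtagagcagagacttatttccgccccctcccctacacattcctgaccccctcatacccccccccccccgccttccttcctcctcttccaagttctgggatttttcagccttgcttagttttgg
Per1, chr11:69099902-69100151, plus strand: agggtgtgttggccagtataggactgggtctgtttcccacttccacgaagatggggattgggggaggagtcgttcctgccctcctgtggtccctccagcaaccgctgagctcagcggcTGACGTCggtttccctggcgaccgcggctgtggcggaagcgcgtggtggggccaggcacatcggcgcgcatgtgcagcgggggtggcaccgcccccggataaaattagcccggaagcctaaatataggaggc
Dusp1, chr17:26508645-26508674, minus strand: tcctaggccgaTGACGTCtttgcttttggc
Dusp1, chr17:26508597-26508626, minus strand: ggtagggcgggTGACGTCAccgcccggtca
The palindrome starts 189 bases before one of the annotated Sgk1 starts. It occurred in 3 of 32851 promoter windows (0.00913%) and the half-site in 5284 (16.1%). The Sgk1 window shown holds a further half-site 242 bases before the start, and other Sgk1 windows hold one 195 and one 13 bases before their starts. A half-site is also present 185 bases before one of the Tsc22d3 starts. The full cyclic AMP element starts 143 bases before the Dusp1 start and was found in 1.55% of all windows. The 7-letter part is also present 191 bases before the Dusp1 start and 132 bases before one of the Per1 starts, and 2.78% of all windows hold it. The Per1 windows held no full cyclic AMP element. Neither the palindrome nor the cyclic AMP element or its 7-letter part was found in the windows of Fkbp5, Ddit4 and Tsc22d3. This says only that these letters are not in these windows.

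The WT lobes held 41838 cells and between 30450786 and 124106974 UMIs each, the Mini lobes 20085 cells and between 28057164 and 33264104 UMIs, and the 16 other samples 86786 cells and between 5405078 and 91172408 UMIs. Ribosomal RNA took from 13.3% to 35.5% of a sample's UMIs and was left out of library sizes. After quality control, cells were clustered without the 7 members, and clusters were named by marker genes. Doublets were removed after the naming, before counts were summed. Classes other than thymocyte stages, such as innate-like T or gamma-delta cells, were named as well. The stages were named DN-like, proliferating DP (DP-P-like), recombining DP (DP-R-like), selected DP (DP-S-like), mature single-positive (mature SP-like) and SP-CD8-like. In the WT lobes these stages held 1068, 7320, 14790, 2964, 1024 and 570 cells, and in the Mini lobes 343, 3409, 8975, 2112 and 1072 cells, with no SP-CD8-like class. The mature SP-like class of the Mini lobes may therefore include CD8 cells that were named apart in the WT lobes, which was not tested. No cluster was named SP-CD4-like in either experiment, and clusters with mixed markers, 8299 cells in the WT lobes and 2025 in the Mini lobes, stayed unnamed. One of the DP-R-like clusters of the WT lobes, with 707 cells before doublets were removed, came from a single lobe. Cells of the early stages were deeper, with a median of 7980.5 UMIs in DN-like and 8779 in DP-P-like cells of the WT lobes against 1798 in DP-R-like cells. The comparisons were also repeated with each cell thinned to 1000 UMIs, except for Sgk1, which had no value in thinned cells of either experiment. Thinning leaves a gene's expected share of a cell's UMIs unchanged and removes counts. A call kept or lost in thinned cells therefore does not test the part of depth. Before thinning, each of the 7 members passed the filter on low counts in both experiments. In the WT library 44889 cells, and in the Mini library 2720, shared their combination of 3 well barcodes with a cell of another sublibrary, and none shared the full barcode.

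Nr3c1, the receptor, was highest in DN-like and DP-P-like cells and became lower from there on. In WT lobes 1 to 4 its level was 1296, 976, 806 and 873 CPM in DN-like cells and 1138, 937, 841 and 888 CPM in DP-P-like cells. It was 843, 836, 718 and 709 CPM in DP-R-like cells, 526, 522, 457 and 537 CPM in DP-S-like cells and 506, 326, 344 and 442 CPM in mature SP-like cells. Every DP-S-like value lay below every DP-R-like value, whereas the ranges of DN-like and DP-P-like cells overlapped. In the Mini lobes (1-A, 1-B, 2-A and 2-B) the level fell from 1168, 1186, 1289 and 1262 CPM in DP-P-like cells to 838, 842, 916 and 872 CPM in DP-R-like and 664, 616, 697 and 639 CPM in DP-S-like cells. Mature SP-like cells of the Mini lobes held 467, 452, 435 and 434 CPM, and no 2 of these 4 classes overlapped.

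The differences were tested on UMIs summed per lobe and class with edgeR's quasi-likelihood test, with the lobe as a block and Benjamini-Hochberg adjustment over all genes. From DP-R-like to DP-S-like cells Nr3c1 fell by 0.67 ± 0.068 on the log2 scale (SE, edgeR adjusted p = 6.9e-11) in the WT lobes and by 0.46 ± 0.047 (edgeR adjusted p = 4.0e-12) in the Mini lobes. From DP-P-like to DP-R-like cells it fell by 0.23 (edgeR adjusted p = 0.0011) and 0.39 (edgeR adjusted p = 5.4e-12), the former call being lost without the lobe block (edgeR adjusted p = 0.082). Between DN-like and DP-P-like cells the difference was 0.00 (edgeR adjusted p = 0.97) and 0.05 (edgeR adjusted p = 0.50). In the Mini lobes it was -0.26 (edgeR adjusted p = 0.0052) with 30% of the cells removed as doublets and -0.22 (edgeR adjusted p = 0.000765) with finer clusters. Without the filter on low counts, Nr3c1 was instead called higher in DP-P-like cells of the Mini lobes. From DP-S-like to mature SP-like cells Nr3c1 fell by 0.27 (edgeR adjusted p = 0.017) in the WT lobes, a call lost without lobe 2 (edgeR adjusted p = 0.19) or lobe 3 (edgeR adjusted p = 0.080) and with finer clusters (edgeR adjusted p = 0.23), and by 0.60 (edgeR adjusted p = 3.0e-12) in the Mini lobes. SP-CD8-like cells of the WT lobes held 348, 339, 348 and 347 CPM, within the range of mature SP-like cells (edgeR adjusted p = 0.067). Against mature SP-like cells Nr3c1 was called lower there with finer clusters (-0.65, edgeR adjusted p = 9.9e-08) and without the filter on low counts (-0.30, edgeR adjusted p = 0.0078).

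**Figure D1:**
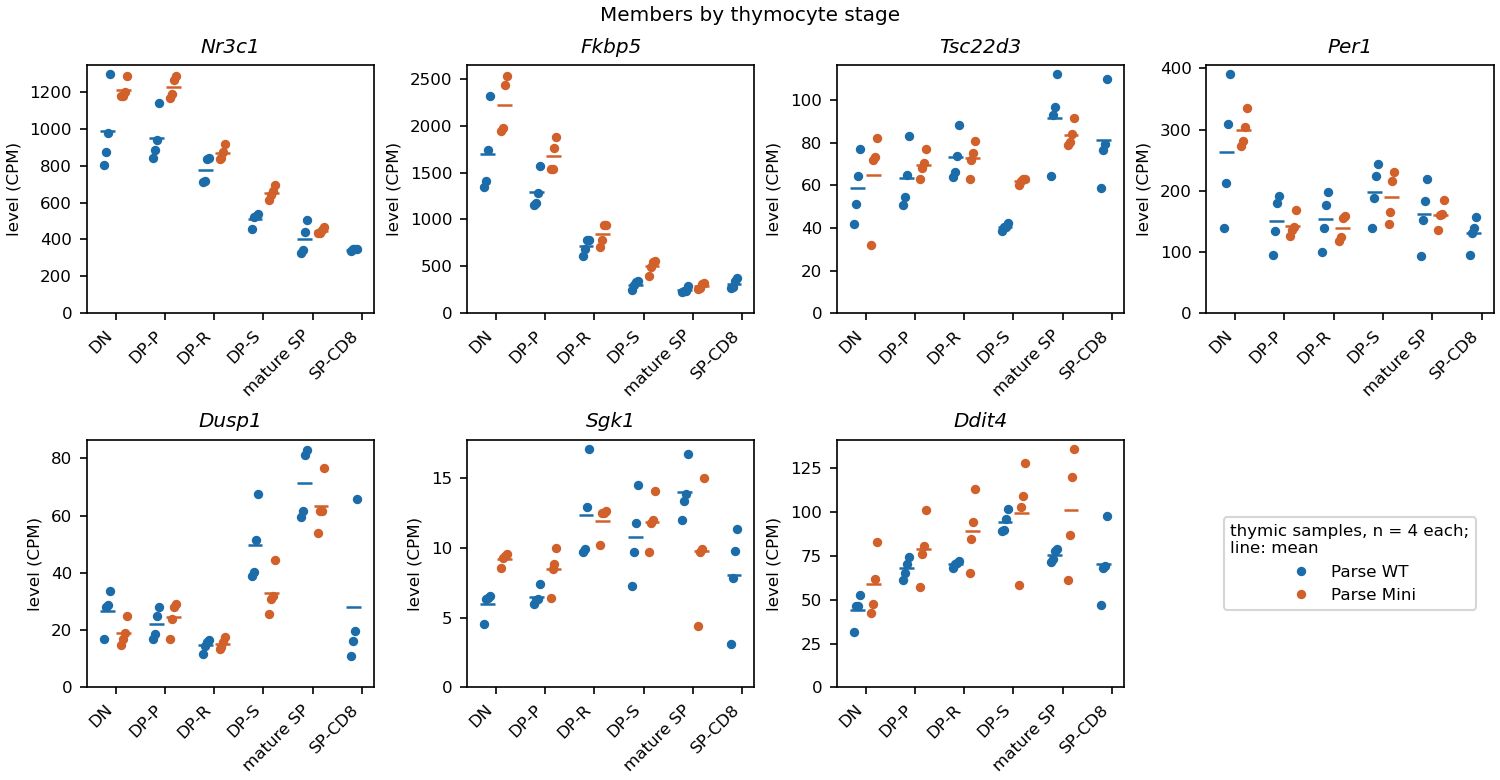
Level of each member (CPM) in each lobe by thymocyte class, in the Parse WT and the Parse Mini library. Points are lobes (n = 4 in each library) and short lines the means. Nr3c1 and Fkbp5 become lower from DP-P-like to mature SP-like cells. Among the classes shown, Dusp1 has its lowest mean in DP-R-like cells and its highest in mature SP-like cells.

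Fkbp5, the feedback immunophilin, fell from stage to stage as well. DN-like cells of the WT lobes held 2314, 1344, 1407 and 1736 CPM, DP-P-like cells 1566, 1176, 1151 and 1287 CPM and DP-R-like cells 783, 683, 605 and 779 CPM. In DP-S-like cells the level was 244, 330.2, 299.9 and 344 CPM and in mature SP-like cells 293, 238, 229.6 and 239 CPM. The Mini lobes showed the same order, from 1970.0, 1947, 2429.6 and 2529 CPM in DN-like cells to 786, 708, 943 and 936 CPM in DP-R-like and 259.7, 271, 308 and 318 CPM in mature SP-like cells. Every class from DN-like to DP-S-like fell from the one before it in both experiments, and DP-P-like, DP-R-like and DP-S-like cells did not overlap.

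Fkbp5 fell by 0.33 ± 0.072 (SE, edgeR adjusted p = 0.00026) from DN-like to DP-P-like cells of the WT lobes and by 0.37 ± 0.047 (edgeR adjusted p = 2.2e-09) in the Mini lobes, the WT call being lost without the lobe block (-0.35, edgeR adjusted p = 0.058). From DP-P-like to DP-R-like cells the log2 differences were -0.80 (edgeR adjusted p = 1.3e-12) and -0.89 (edgeR adjusted p = 1.5e-25). From DP-R-like to DP-S-like cells Fkbp5 was 2.43-fold lower in the WT lobes (log2 difference -1.28 ± 0.085, edgeR adjusted p = 4.8e-16) and 1.75-fold lower in the Mini lobes (-0.81 ± 0.051, edgeR adjusted p = 2.7e-20). Over the whole interval from DP-R-like to mature SP-like cells the level was 2.94-fold and 3.10-fold lower, the WT log2 difference of -1.55 being -0.71 with finer clusters (edgeR adjusted p = 1.0e-10). The last step, from DP-S-like to mature SP-like cells, passed the test in the Mini lobes (-0.82, edgeR adjusted p = 6.2e-15) and not in the WT lobes (-0.27, edgeR adjusted p = 0.096). The WT step was called without lobe 1 (-0.44, edgeR adjusted p = 0.00026), without the filter on low counts (-0.32, edgeR adjusted p = 0.00074) and with coarser clusters (-0.27, edgeR adjusted p = 0.049). With finer clusters the DP-S-like class of the WT lobes held 707 cells and the fall from DP-R-like cells was -0.58 on the log2 scale, still past the threshold.

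Dusp1, the MAP kinase phosphatase, ran the other way and rose late. In DP-R-like cells its level was 15.9, 11.9, 16.6 and 14.5 CPM in the WT lobes and 17.6, 15.7, 13.5 and 14.0 CPM in the Mini lobes. DP-S-like cells held 51.4, 40.4, 67.7 and 39.0 CPM and, in the Mini lobes, 44.5, 31.8, 25.6 and 30.8 CPM. Mature SP-like cells held 83.0, 59.5, 81.3 and 61.8 CPM in the WT lobes and 76.7, 61.5, 61.7 and 53.9 CPM in the Mini lobes. In each experiment the lowest DP-S-like and mature SP-like values lay above the highest DP-R-like value. Outside these stages, innate-like T or gamma-delta cells of the WT lobes (470 cells) held more, from 70.1 to 139.9 CPM. Their mean was 99.7 CPM, against 71.4 CPM in mature SP-like cells. The rise from DP-R-like to mature SP-like cells was 4.72-fold in the WT lobes (log2 difference 2.24 ± 0.19, SE, edgeR adjusted p = 2.9e-13) and 3.84-fold in the Mini lobes (1.94 ± 0.17, edgeR adjusted p = 8.2e-15). With finer clusters the WT log2 difference was 1.18 (edgeR adjusted p = 1.8e-09). The step from DP-R-like to DP-S-like cells was 1.64 (edgeR adjusted p = 8.3e-12) and 1.05 (edgeR adjusted p = 1.6e-07), and that from DP-P-like to DP-R-like cells -0.48 (edgeR adjusted p = 0.00043) and -0.58 (edgeR adjusted p = 4.2e-05), the WT call being lost in thinned cells (edgeR adjusted p = 0.11). With finer clusters the WT step from DP-R-like to DP-S-like cells was 0.58 and lost its call (edgeR adjusted p = 0.15). The further rise from DP-S-like to mature SP-like cells of the WT lobes (0.60, edgeR adjusted p = 0.012) lost its call without lobe 1 (edgeR adjusted p = 0.051) or lobe 4 (edgeR adjusted p = 0.053). It was also lost in thinned cells, without the lobe block and with finer clusters.

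The annotated span of Dusp1 overlaps Ergic1, a protein-coding gene on the other strand, and whether reads were counted by strand was not stated. Ergic1, which acts in transport between the endoplasmic reticulum and the Golgi, also rose from DP-R-like to mature SP-like cells, by 1.39 (edgeR adjusted p = 8.6e-11) in the WT lobes and 1.30 (edgeR adjusted p = 1.9e-13) in the Mini lobes. It fell from DP-P-like to DP-R-like cells by 0.60 and 0.72 on the log2 scale. The part of Ergic1 in the Dusp1 counts was not tested. Of 10 immediate early and heat shock genes that tissue dissociation can raise, 7 were tested, and their part in the Dusp1 values was not tested either. From DP-R-like to DP-S-like cells 5 of the 7 rose in the WT lobes and 4 in the Mini lobes, beside 24.9% and 15.1% of all genes, with none lower and a median of 1.24 and 1.02. Among them were the immediate early transcription factor genes Egr1 (2.94 and 3.08) and Junb (1.65 and 1.02). From DP-S-like to mature SP-like cells 1 of the 7 rose, 1 fell and 5 were not called in both experiments, near the shares of all genes (13.2% higher and 11% lower, and 17.4% and 15.7%). From DN-like to DP-P-like cells, 6 of the 7 fell in both, beside 19.7% and 18.1% of all genes, with Jun at -2.45 and -2.58. Dusp1 was not called there (-0.23 and 0.40, edgeR adjusted p = 0.22 and 0.19), but with finer clusters it was called higher in the Mini lobes.

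In SP-CD8-like cells of the WT lobes Dusp1 was at 19.8, 16.3, 65.9 and 10.98 CPM. Lobe 3 stood apart, with 21 UMIs against 5 to 7 in the other lobes. Against mature SP-like cells Dusp1 was lower by a log2 difference of -1.54 ± 0.27 (SE, edgeR adjusted p = 5.9e-05), and between -2.23 and -1.21 when single lobes were left out. With finer clusters it was -0.39 and not called (edgeR adjusted p = 0.33), and Fkbp5, not called in the original clusters (0.32, edgeR adjusted p = 0.14), was lower at -0.48 (edgeR adjusted p = 0.0010). Ergic1 was lower as well (-1.41, edgeR adjusted p = 7.7e-06). Dusp1 was the only 1 of the 7 members called in this comparison, in which 13.6% of all 10474 genes tested were called (6.43% higher and 7.14% lower).

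Per1, the clock repressor, was highest in DN-like cells and fell on entry into the DP-P-like class. In the WT lobes it went from 390.2, 138, 309.7 and 213 CPM to 192, 95.0, 181 and 134 CPM, and in the Mini lobes from 304, 336, 281 and 273 CPM to 169, 140.4, 137 and 127 CPM. Every lobe was lower, although the WT ranges overlapped, lobe 2 having the lowest Per1 level in all 6 classes. The log2 difference was -0.70 ± 0.073 (SE, edgeR adjusted p = 2.4e-10) in the WT lobes and -1.03 ± 0.083 (edgeR adjusted p = 6.2e-16) in the Mini lobes. Between DP-P-like and DP-R-like cells it was 0.09 (edgeR adjusted p = 0.22) and 0.06 (edgeR adjusted p = 0.37), and the WT value was called without lobe 1 (0.17, edgeR adjusted p = 0.0043) and in thinned cells (0.19, edgeR adjusted p = 0.033). Per1 then rose in DP-S-like cells, to 224, 139.6, 244 and 188 CPM and 231, 216, 146 and 165 CPM, by 0.31 (edgeR adjusted p = 0.0015) and 0.39 (edgeR adjusted p = 1.3e-05). Without the lobe as a block, or with finer clusters, the WT rise did not pass the test (edgeR adjusted p = 0.35 and 0.23). The fall from DP-S-like to mature SP-like cells of the Mini lobes (-0.27, edgeR adjusted p = 0.031) lost its call without lobe 1-A (edgeR adjusted p = 0.094) or lobe 1-B (edgeR adjusted p = 0.26), and in the WT lobes the difference was -0.25 (edgeR adjusted p = 0.11). The WT fall was called with coarser clusters (-0.29, edgeR adjusted p = 0.0086) and without lobe 1 (-0.35, edgeR adjusted p = 0.022), and over both experiments Per1 was lower in all 8 lobes, by a mean of -0.27 in log2(CPM + 1) (exact sign-flip permutation test, adjusted p = 0.014).

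Tsc22d3, which encodes GILZ, dipped in DP-S-like cells. In the WT lobes these held 38.8, 40.4, 42.5 and 40.6 CPM, below the 88.4, 64.0, 73.8 and 66.3 CPM of DP-R-like cells and the 96.9, 92.9, 112 and 64.2 CPM of mature SP-like cells. The log2 differences were -0.90 ± 0.12 (SE, edgeR adjusted p = 2.1e-08) into the DP-S-like class and 1.14 ± 0.16 (edgeR adjusted p = 3.6e-07) out of it. In the Mini lobes the levels were 61.9, 62.9, 62.8 and 60.4 CPM against 75.1, 63.0, 71.7 and 81.0 CPM before and 84.1, 79.1, 91.6 and 80.2 CPM after. There the log2 differences were -0.28 (edgeR adjusted p = 0.037) and 0.38 (edgeR adjusted p = 0.044), and each call held under 8 of 15 other settings, both being lost without lobe 1-A, 2-A or 2-B (edgeR adjusted p from 0.085 to 0.36 and from 0.085 to 0.17). With finer clusters the WT fall was -0.34 and not called (edgeR adjusted p = 0.092), and the WT rise was 0.43 (edgeR adjusted p = 0.030). With coarser clusters the Mini differences were -0.69 (edgeR adjusted p = 6.2e-05) and 0.99 (edgeR adjusted p = 1.9e-05), and the WT differences -0.77 and 1.00, so the depth of the dip in each experiment depended on the clusters. From DP-P-like to DP-R-like cells Tsc22d3 rose by 0.29 (edgeR adjusted p = 0.00065) in the WT lobes, a call lost without the lobe block (edgeR adjusted p = 0.087), and by 0.17 (edgeR adjusted p = 0.049) in the Mini lobes, where the call held under 2 of 15 other settings. Over all 8 lobes it was higher in 7, by a mean of 0.14 in log2(CPM + 1), and an exact sign-flip permutation test did not pass (adjusted p = 0.068).

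Ddit4, the mTORC1 inhibitor, rose from DN-like to DP-P-like cells. In the WT lobes it went from 31.8, 52.6, 46.3 and 46.5 CPM to 61.1, 74.2, 70.4 and 65.5 CPM without overlap, a log2 difference of 0.59 ± 0.093 (SE, edgeR adjusted p = 1.6e-06). In the Mini lobes it went from 83.0, 42.5, 61.9 and 47.7 CPM to 101, 57.4, 75.8 and 80.7 CPM, by 0.45 (edgeR adjusted p = 0.0067), and the call was lost without lobe 2-B (0.34, edgeR adjusted p = 0.093). With cells thinned to 1000 UMIs the difference was 0.57 (edgeR adjusted p = 0.065) and 0.39 (edgeR adjusted p = 0.51). The Mini lobes differed among themselves, lobe 1-A being highest and lobe 1-B lowest in all 5 classes. From DP-P-like to DP-R-like cells Ddit4 rose in the Mini lobes (0.29, edgeR adjusted p = 0.00021) but not in thinned cells (0.19, edgeR adjusted p = 0.18), and the WT difference was 0.10 (edgeR adjusted p = 0.18). The Mini call was also lost without the lobe block. Over all 8 lobes Ddit4 was higher in 6 at that step, by a mean of 0.12 in log2(CPM + 1), and an exact sign-flip permutation test did not pass (adjusted p = 0.068). From DP-R-like to DP-S-like cells Ddit4 rose by 0.35 (edgeR adjusted p = 0.0012) in the WT lobes, to 89.3, 102, 89.4 and 95.7 CPM, and with finer clusters this was 0.16 (edgeR adjusted p = 0.56). The same step in the Mini lobes was 0.10 (edgeR adjusted p = 0.41), and 0.35 with coarser clusters (edgeR adjusted p = 0.0044). Over all 8 lobes Ddit4 was higher in 7 from DP-R-like to DP-S-like cells, by a mean of 0.27 in log2(CPM + 1) (exact sign-flip permutation test, adjusted p = 0.026).

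Sgk1, the kinase, was scarce in thymocytes, between 3.14 and 17.02 CPM in every lobe over the 6 stages of the WT library and between 4.39 and 15.0 CPM over the 5 of the Mini library. It rose from DP-P-like to DP-R-like cells, from 6.31, 5.97, 7.39 and 6.22 CPM to 17.02, 9.66, 12.9 and 9.89 CPM in the WT lobes. In the Mini lobes it went from 10.00, 8.83, 6.41 and 8.48 CPM to 12.5, 12.4, 10.2 and 12.6 CPM, and the classes did not overlap in either experiment. The log2 difference was 0.90 ± 0.14 (SE, edgeR adjusted p = 4.1e-07) and 0.61 ± 0.17 (edgeR adjusted p = 0.0010). No other step between stages was called for Sgk1. Mature SP-like cells gave 5 to 11 Sgk1 UMIs per WT lobe and 3 to 8 per Mini lobe, so smaller changes were not detectable at this depth.

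**Figure D2:**
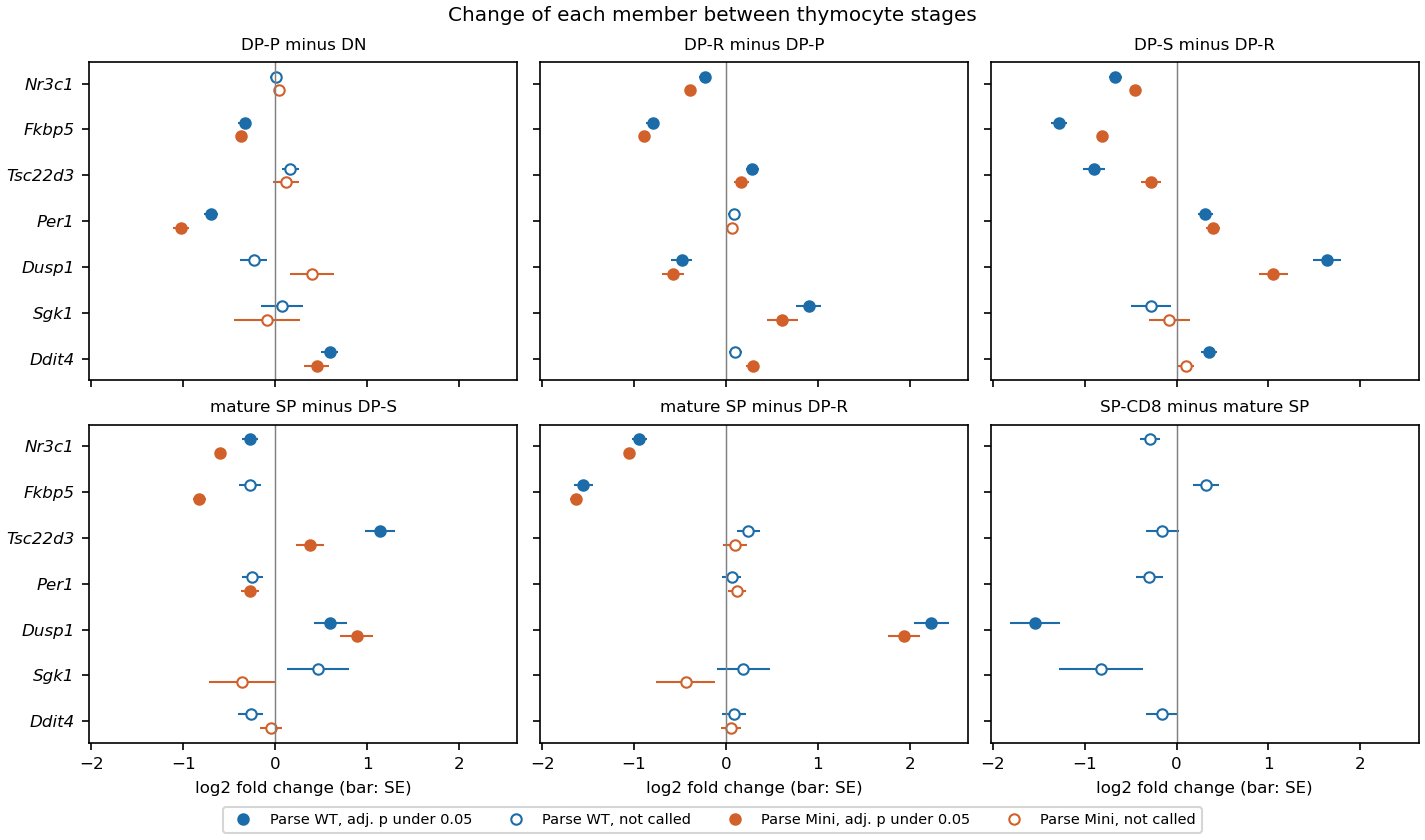
Log2 difference of each member between neighbouring thymocyte classes and between mature SP-like and DP-R-like cells (edgeR, points with ± SE, filled where the adjusted p is below 0.05), for the Parse WT and the Parse Mini lobes. Nr3c1 and Fkbp5 lie below 0 in every comparison of DP-R-like, DP-S-like and mature SP-like cells with an earlier class, and Dusp1 reaches 2.24 and 1.94 between DP-R-like and mature SP-like cells.

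Counted over the 7 members, 3 were called from DN-like to DP-P-like cells in both experiments, 1 higher and 2 lower. Of all genes tested, 39.3% were called there in the WT lobes (19.5% higher and 19.7% lower) and 35.9% in the Mini lobes (17.8% higher and 18.1% lower). From DP-P-like to DP-R-like cells 5 and 6 members were called, 3 of them lower in each, against 65.7% of all genes (34.8% higher and 31% lower) and 65.8% (34.5% higher and 31.3% lower). Between DP-R-like and DP-S-like cells 6 and 5 members were called, again 3 lower in each, against 45.9% (24.9% higher and 21% lower) and 32.1% (15.1% higher and 17% lower). From DP-S-like to mature SP-like cells 3 and 5 were called, 2 of them higher in each, against 24.2% (13.2% higher and 11% lower) and 33.2% (17.4% higher and 15.7% lower). From DP-R-like to mature SP-like cells 3 and 3 were called, 1 higher and 2 lower in each, against 44.1% (23.3% higher and 20.8% lower) and 48.4% (24.8% higher and 23.6% lower). The stages differed in a large part of all genes, and no count was tested against that background. The counts of 3 of 7 in the first and last of these comparisons were near it. So was the count of 5 of 7 from DP-P-like to DP-R-like cells of the WT lobes. With only 7 members, the other counts are not read as standing out. The members called at a step moved in both directions in each of these comparisons. Their median from DP-R-like to DP-S-like cells was -0.28 in the WT lobes and -0.08 in the Mini lobes, beside 0.01 and -0.03 over all genes tested.

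Whether the changes differed between the experiments was tested by the interaction of kit and class over 11193 genes, and the answer depended on the clusters. Relative to DP-R-like cells, the WT lobes fell further than the Mini lobes in DP-S-like cells for Fkbp5 (by -0.50, edgeR adjusted p = 0.00052) and Tsc22d3 (by -0.64, edgeR adjusted p = 0.0052). Out of the DP-S-like class, the change was higher in the WT lobes for Fkbp5 (0.57, edgeR adjusted p = 0.0069), Tsc22d3 (0.79, edgeR adjusted p = 0.013) and Nr3c1 (0.34, edgeR adjusted p = 0.031). With coarser clusters no member differed at either step, with differences of 0.08 and -0.06 for the first pair and 0.18, 0.01 and 0.06 for the other 3 (edgeR adjusted p of at least 0.75). With finer clusters Fkbp5 (0.75, edgeR adjusted p = 7.7e-05) and Nr3c1 (0.58, edgeR adjusted p = 2.5e-05) differed out of the class, but Tsc22d3 did not (-0.08), and neither Fkbp5 (0.27) nor Tsc22d3 (-0.04) differed into it. From DP-R-like to mature SP-like cells, across that class, no member was called different between the experiments, with differences from -0.06 to 0.63, whereas with finer clusters Fkbp5 (1.02), Nr3c1 (0.63) and Dusp1 (-0.83) were. With finer clusters Dusp1 (-1.07, edgeR adjusted p = 0.041) and Per1 (0.39, edgeR adjusted p = 0.039) also differed from DN-like to DP-P-like cells. The kits were run on different mice and the classes were clustered separately, so kit, mice and class boundaries cannot be told apart.

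The receptor's partners, 13 chaperones, coregulators and related enzymes, were followed beside the members. From DP-P-like to DP-R-like cells 6 partners fell in each experiment, beside 31% and 31.3% of all genes, and 4 and 3 rose, beside 34.8% and 34.5%. Those that fell included the chaperones Hsp90aa1 (-1.23 and -1.29), Hspa8 (-1.08 and -1.05) and Ptges3, the cochaperone p23 (-1.48 and -1.32). At the same step Hsd11b1, the enzyme that regenerates active glucocorticoid, rose (1.37 and 1.46, edgeR adjusted p = 1.5e-20 and 4.4e-26). From DP-R-like to DP-S-like cells 9 of 13 partners rose in the WT lobes and 7 of 12 in the Mini lobes, beside 24.9% and 15.1% of all genes, while 3 and 1 fell, beside 21% and 17%.

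Of 19 other genes known to be induced by glucocorticoids, 14 were tested in the WT lobes and 13 in the Mini lobes, and at each step described members of the list moved in both directions in at least 1 experiment. At the step from DP-P-like to DP-R-like cells 9 rose and 4 fell in the WT lobes, and 8 rose and 2 fell in the Mini lobes, beside 34.8% and 34.5% of all genes that rose and 31% and 31.3% that fell. Between DP-R-like and DP-S-like cells 8 rose and 4 fell in the WT lobes, and 5 rose and 2 fell in the Mini lobes, beside 24.9% and 15.1% of all genes that rose and 21% and 17% that fell. The clock gene Per2 (1.72 and 1.88), the transcription factor gene Klf9 (1.77 and 1.60) and Rgs2, a regulator of G protein signalling (1.29 and 1.16), rose there while Fkbp5 and Nr3c1 fell. Il7r, the interleukin-7 receptor, rose most (4.46 and 3.57), but it was among the markers used to name mature SP-like cells. Klf9 fell from DN-like to DP-P-like cells (-2.52 and -2.60), a step at which 7 of 14 of these genes fell and none rose in the WT lobes, and 4 of 13 fell and 2 rose in the Mini lobes, beside 19.7% and 18.1% of all genes that fell and 19.5% and 17.8% that rose.

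Technical spread of Nr3c1 and Fkbp5 was small in DP-R-like cells and across the WT sublibraries, and wider in mature SP-like cells. Between the first-round wells of 1 WT lobe, the higher level was a median of 1.09 times the lower for Nr3c1 in DP-R-like cells. It was 1.10 times for Fkbp5 and 1.32 times for Per1, the latter with a maximum of 2.16. In mature SP-like cells of the WT lobes the median was 1.28 times for Nr3c1 and 1.21 times for Fkbp5, with maxima of 1.41 and 1.62. In the same class of the Mini lobes the Nr3c1 median was 1.32 times, and the maxima were 1.68 for Nr3c1 and 1.69 for Fkbp5. The WT fall of Nr3c1 from DP-S-like to mature SP-like cells was 1.21-fold, no larger than the spread between wells of mature SP-like cells. Across the 9 WT sublibraries, which each hold cells of every sample, the highest level was 1.04 times the lowest for Nr3c1, 1.06 times for Fkbp5 and 1.28 times for Dusp1.

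In the 16 other samples, B-like cells (37869 cells) and T-like cells (16486 cells) were found in every sample. Nr3c1 ranged from 319 to 757 CPM in B-like cells with a median of 445, and from 241 to 626 CPM in T-like cells with a median of 374. It was lower in T-like than in B-like cells in all samples but CVS_S_5. Sample CVS_C_3 was highest in both, and it was highest in 9 of the 12 classes in which it had enough cells. That sample also had the deepest cells, with a median of 8039 UMIs, and the part of depth was not tested. With each cell thinned to 1000 UMIs the highest B-like and T-like levels were 764 and 638 CPM. Thinning leaves a gene's expected share of a cell's UMIs unchanged, so these values do not test depth.

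Fkbp5 varied most between samples in absolute level, from 83.3 to 1028 CPM in B-like cells with a median of 174 and from 125 to 665 CPM in T-like cells with a median of 229. It was higher in T-like cells in 13 of 16 samples. Tsc22d3 ran from 62.5 to 243 CPM in B-like cells with a median of 118, and was higher there than in T-like cells, with a median of 78.8 CPM, in all but 2 samples. Per1 had medians of 33.4 and 50.7 CPM and Dusp1 of 4.92 and 8.53 CPM in B-like and T-like cells, each being higher in T-like cells in 14 of 16 samples. Ddit4, with medians of 30.6 and 51.2 CPM, was higher in T-like cells in 15 of 16.

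Sgk1 separated the lineages. It ranged from 63.3 to 129 CPM in T-like cells and from 2.69 to 33.1 CPM in B-like cells, so that the ranges did not overlap. The ratio within a sample was a median of 12.5, from 2.90 in the sample with the highest B-like level, CVS_C_1, to 26.1. Summed T cell markers in B-like cells lay between 95.4 and 1259 CPM, against 3329 to 9390.2 CPM in T-like cells, and summed B cell markers in T-like cells between 281 and 5734 CPM, against 7157 to 16697 CPM in B-like cells. The highest of these sums in B-like cells, 1259 CPM of T cell markers, was that of CVS_C_1. With 30% of cells removed as doublets, the highest B-like Sgk1 level outside CVS_S_5 was 15.9 CPM. The part of such mixing in the lower of each pair of levels was not tested. Within T-like cells, Sgk1 was higher in CD8 T-like than in Treg-like cells in 14 of 14 samples, with medians of 130.2 and 23.0 CPM, and higher in CD8 T-like than in CD4 T-like cells in 11 of 12. The Treg-like median lay within the range of B-like cells, so the lack of overlap does not extend to Treg-like cells.

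**Figure D3:**
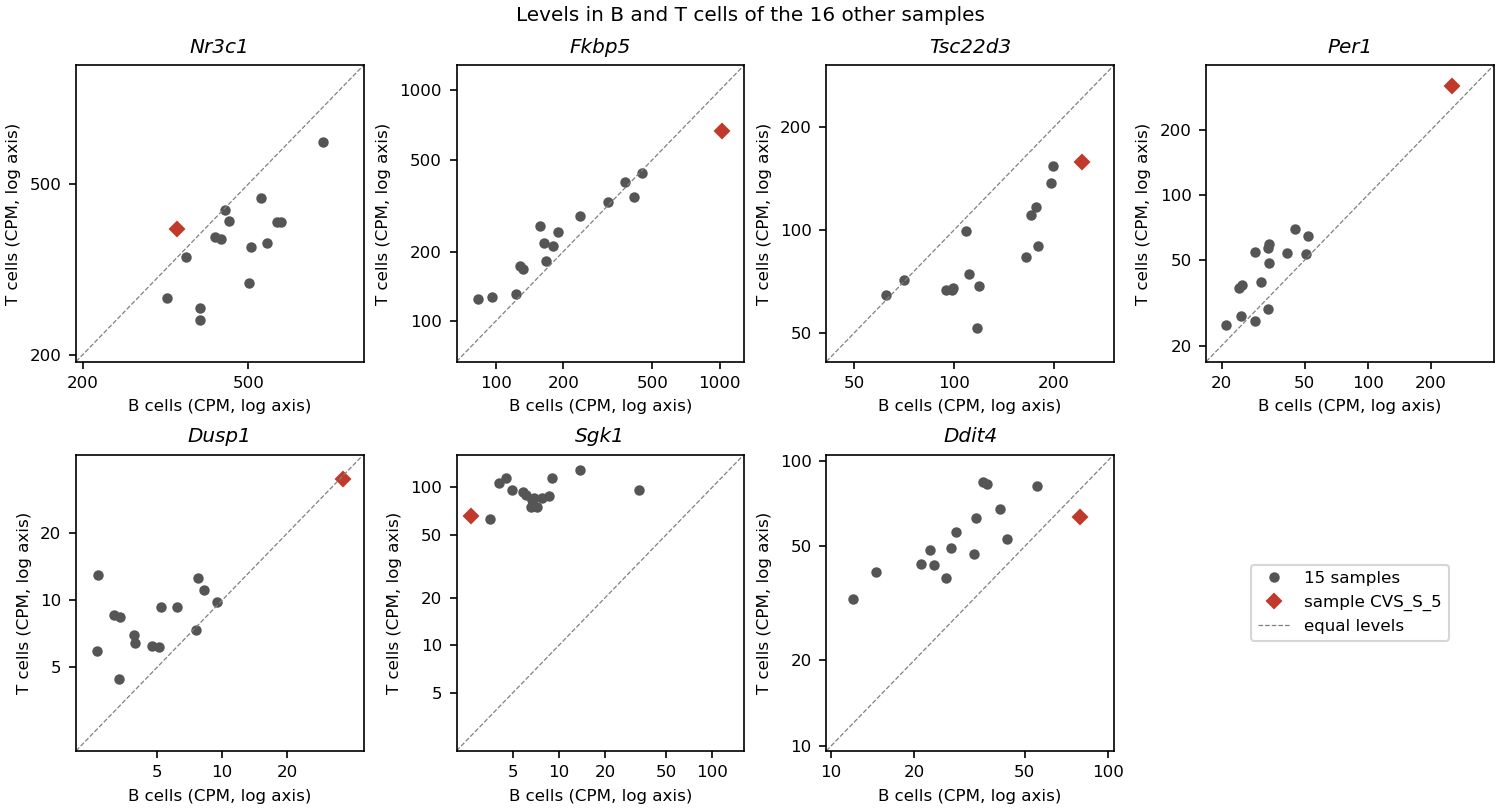
Level of each member in T-like against B-like cells of the 16 other samples (CPM, log axes), 1 point per sample, a diamond for CVS_S_5 and a dashed line at equal levels. Sgk1 lies above the line in all 16 samples, and CVS_S_5 is the highest point on both axes for Fkbp5, Tsc22d3, Per1 and Dusp1.

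Whether a sample that was high in B-like cells was also high in T-like cells was asked by correlation of log2(CPM + 1) over the 16 samples, with permutation p-values adjusted over the 7 members. Fkbp5 gave Pearson's r = 0.97 and Spearman's rho = 0.96 (raw permutation p = 1e-05 for both, the smallest that the permutations can give, adjusted p = 7e-05), and without the 2 samples farthest from the median r was 0.95. Tsc22d3 gave r = 0.80 and rho = 0.82 (raw permutation p = 0.00019 and 0.00017, adjusted 0.00044 and 0.00040) and 0.76 without the farthest 2. Per1 gave r = 0.93 and rho = 0.79 (raw permutation p = 5.0e-05 and 0.00029, adjusted 0.00017 and 0.00051), and r = 0.68 without the farthest 2. Ddit4 gave r = 0.75 and rho = 0.82 (raw permutation p = 0.00081 and 0.00015, adjusted 0.0014 and 0.00040), and 0.75 without the farthest 2, but 0.33 in cells thinned to 1000 UMIs (adjusted permutation p = 0.20). In 2 samples, CVS_C_3 and CVS_S_2, the summed B cell markers of T-like cells (5734 and 5146 CPM) exceeded their summed T cell markers (4394 and 4592 CPM). Without the 4 samples with the highest ratio of B to T cell markers in T-like cells, which include CVS_S_5, r was 0.96 for Fkbp5, 0.69 for Tsc22d3, 0.74 for Per1 and 0.84 for Ddit4 (adjusted permutation p from 7e-05 to 0.023).

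Among the other 3 members, Nr3c1 gave r = 0.67 and rho = 0.59 (raw permutation p = 0.0044 and 0.017, adjusted 0.0057 and 0.024). Without the farthest 2, CVS_C_3 and CVS_C_2, r was 0.41 and not called (adjusted permutation p = 0.20). Leaving out the most extreme B-like levels narrows their range, which can by itself lower r. For Nr3c1, r was 0.64 without the 4 samples named for their markers, which include CVS_C_3 (adjusted permutation p = 0.038). Dusp1 gave r = 0.78 and rho = 0.53 (raw permutation p = 0.0049 and 0.036, adjusted 0.0057 and 0.042), which rests on CVS_S_5, since r was 0.38 without it (adjusted permutation p = 0.19) and 0.38 without those 4 samples (adjusted permutation p = 0.22). Sgk1 gave r = 0.41 and rho = 0.33 (raw permutation p = 0.12 and 0.21). Within the 11 samples named CVS, r was 0.96 for Fkbp5, 0.98 for Per1, 0.77 for Tsc22d3, 0.78 for Ddit4, 0.80 for Nr3c1 and 0.80 for Dusp1, the last being 0.22 without CVS_S_5, and the 5 samples named YD_C were too few for a value of their own. B-like and T-like cells of 1 sample share wells, depth and the free RNA of the sample, and the part of these in the correlation was not tested.

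Sample CVS_S_5 stood apart from the other 15 in several members at once. In B-like cells (461 cells) Fkbp5 was at 1028 CPM, against 451.5 CPM in the next sample and a median of 167 over the 15. Per1 was at 251 CPM against at most 51.8, Dusp1 at 35.9 CPM against at most 9.43, Tsc22d3 at 243 CPM against at most 199 and Ddit4 at 79.0 CPM against at most 55.6. In its T-like cells (500 cells) Fkbp5 was at 665 CPM against at most 439, Per1 at 319.9 CPM against at most 70.0 and Dusp1 at 35.1 CPM against at most 12.9. Tsc22d3 in T-like cells was at 158 CPM, close to the 153 CPM of the next sample, and Ddit4 at 63.5 CPM lay below the highest of the others (84.0 CPM). With 30% of the cells removed as doublets, Dusp1 in T-like cells of CVS_S_5 was at 11.6 CPM, within the range of the others (up to 14.1 CPM), and with finer clusters at 16.2 CPM, also within it (up to 21.9 CPM). Tsc22d3 in T-like cells was then at 95.9 and 102 CPM, again within the ranges, whereas Fkbp5 and Per1 were above all other samples in B-like and T-like cells under both settings. Per1 was thus 7.56 times the median of the other samples in B-like and 6.64 times in T-like cells. The receptor gene and Sgk1 were not raised with them: Nr3c1 was at 337 CPM in B-like cells, 0.747 times the median of the others, and Sgk1 at 2.69 CPM was the lowest of the 16.

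Both first-round wells of CVS_S_5 showed this. Fkbp5 in B-like cells was at 1083 CPM in 1 well and 966 CPM in the other, Per1 at 219.6 and 288 CPM, and Fkbp5 in T-like cells at 644 and 691 CPM. With each cell thinned to 1000 UMIs, Fkbp5 was at 1015 CPM in B-like and 653 CPM in T-like cells, and Per1 at 259 and 289 CPM. Over all 8 classes with enough cells in this sample, Per1 was the highest of the samples in 8, Fkbp5 in 7, Dusp1 and Ddit4 in 5 each, Tsc22d3 in 2 and Nr3c1 and Sgk1 in 0. Monocyte-like cells, for example, held 1356 CPM of Fkbp5. Ergic1, which overlaps Dusp1, was at 94.3 CPM in B-like and 92.0 CPM in T-like cells, within the ranges over the 16 samples (36.9 to 138 and 33.6 to 117 CPM).

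Other glucocorticoid-induced genes were also high in CVS_S_5. It had the highest level of the 16 samples for 7 of 16 such genes in B-like, 8 of 16 in T-like, 11 of 19 in monocyte-like and 8 of 17 in neutrophil-like cells. Of all genes with a mean of at least 1 CPM it had the highest level for 19.5%, 19.6%, 13.2% and 11.6% in these classes. Their summed level was 2794 CPM in B-like cells, against 1205 to 1923 CPM in the other samples, and 3308 CPM in T-like cells, against 1296 to 2237 CPM. The immediate early and heat shock genes summed to 199 CPM in its B-like cells, against 61.8 to 139 CPM, and to 400.2 CPM in neutrophil-like cells, against 63.3 to 230.1 CPM, but in T-like and monocyte-like cells they were level with the highest other sample (161 against 161 CPM and 261 against 263 CPM). The receptor's partners summed to 3358 CPM in its B-like cells, within the 2719 to 4455 CPM of the other samples. In T-like and monocyte-like cells they were also within the range of the others (3039 and 3029 CPM), and in neutrophil-like cells they were the lowest of the 16 (2110 CPM against 2414 to 3875). Whether dissociation had a part in the members' levels was not tested. CVS_S_5 held 3534 cells and 9256292 UMIs, with 28.0% ribosomal RNA and a median of 1909 UMIs per cell, all within the ranges of the other samples. Its summed markers were the lowest of the 16 in both classes, at 7157 CPM of B cell markers in B-like cells (next 9084) and 3329 CPM of T cell markers in T-like cells (next 3917), and their part in the result was not tested. The labels name no treatment or tissue for it by sample.

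Over the other cell classes of these 16 samples, the receptor gene and its targets had different leading classes. Nr3c1 was highest in DP-R-like cells, found in 9 samples (median 756 CPM, from 528 to 1003), above B-like cells of the same sample in 7 of 9, and lowest in erythroid-like cells (median 178 CPM), and B-like cells came next after DP-R-like cells (445 CPM). Fkbp5 led in the same DP-R-like cells with a median of 815 CPM, followed by macrophage-like (405 CPM), Treg-like (309 CPM) and monocyte-like cells (297 CPM). It was above B-like cells in 9 of 9 samples for DP-R-like and 13 of 16 for monocyte-like cells. The DP-R-like class held 2161 cells in these 9 samples, which are described as not thymic, with a median of 1067 UMIs. Whether these were cells of those samples or barcodes with RNA of the thymic lobes in the same library was not tested. In the 4 WT thymic lobes, DP-R-like cells held 709 to 843 CPM of Nr3c1 and 605 to 783 CPM of Fkbp5.

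Among the targets, Sgk1 was highest in cDC-like (median 157 CPM), monocyte-like (141 CPM) and CD8 T-like cells (130.2 CPM), and was above B-like cells in 16 of 16 samples for monocyte-like and for neutrophil-like cells. Tsc22d3 was highest in monocyte-like (153 CPM) and neutrophil-like cells (149 CPM), and Ddit4 in macrophage-like cells (110.1 CPM). Per1 was highest in plasma-like cells (87.2 CPM) and DP-R-like cells (80.3 CPM). Dusp1 had its highest medians in neutrophil-like (25.2 CPM) and cDC-like cells (25.1 CPM), and was above B-like cells in 15 of 16 samples for neutrophil-like cells. Within T-like cells, Treg-like cells had more Dusp1 than CD8 T-like cells in 14 of 14 samples and more Fkbp5 in 12 of 14, and less Tsc22d3 in 13 of 14. For every member, the ranges over samples of the 2 classes with the highest medians overlapped.

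**Figure D4:**
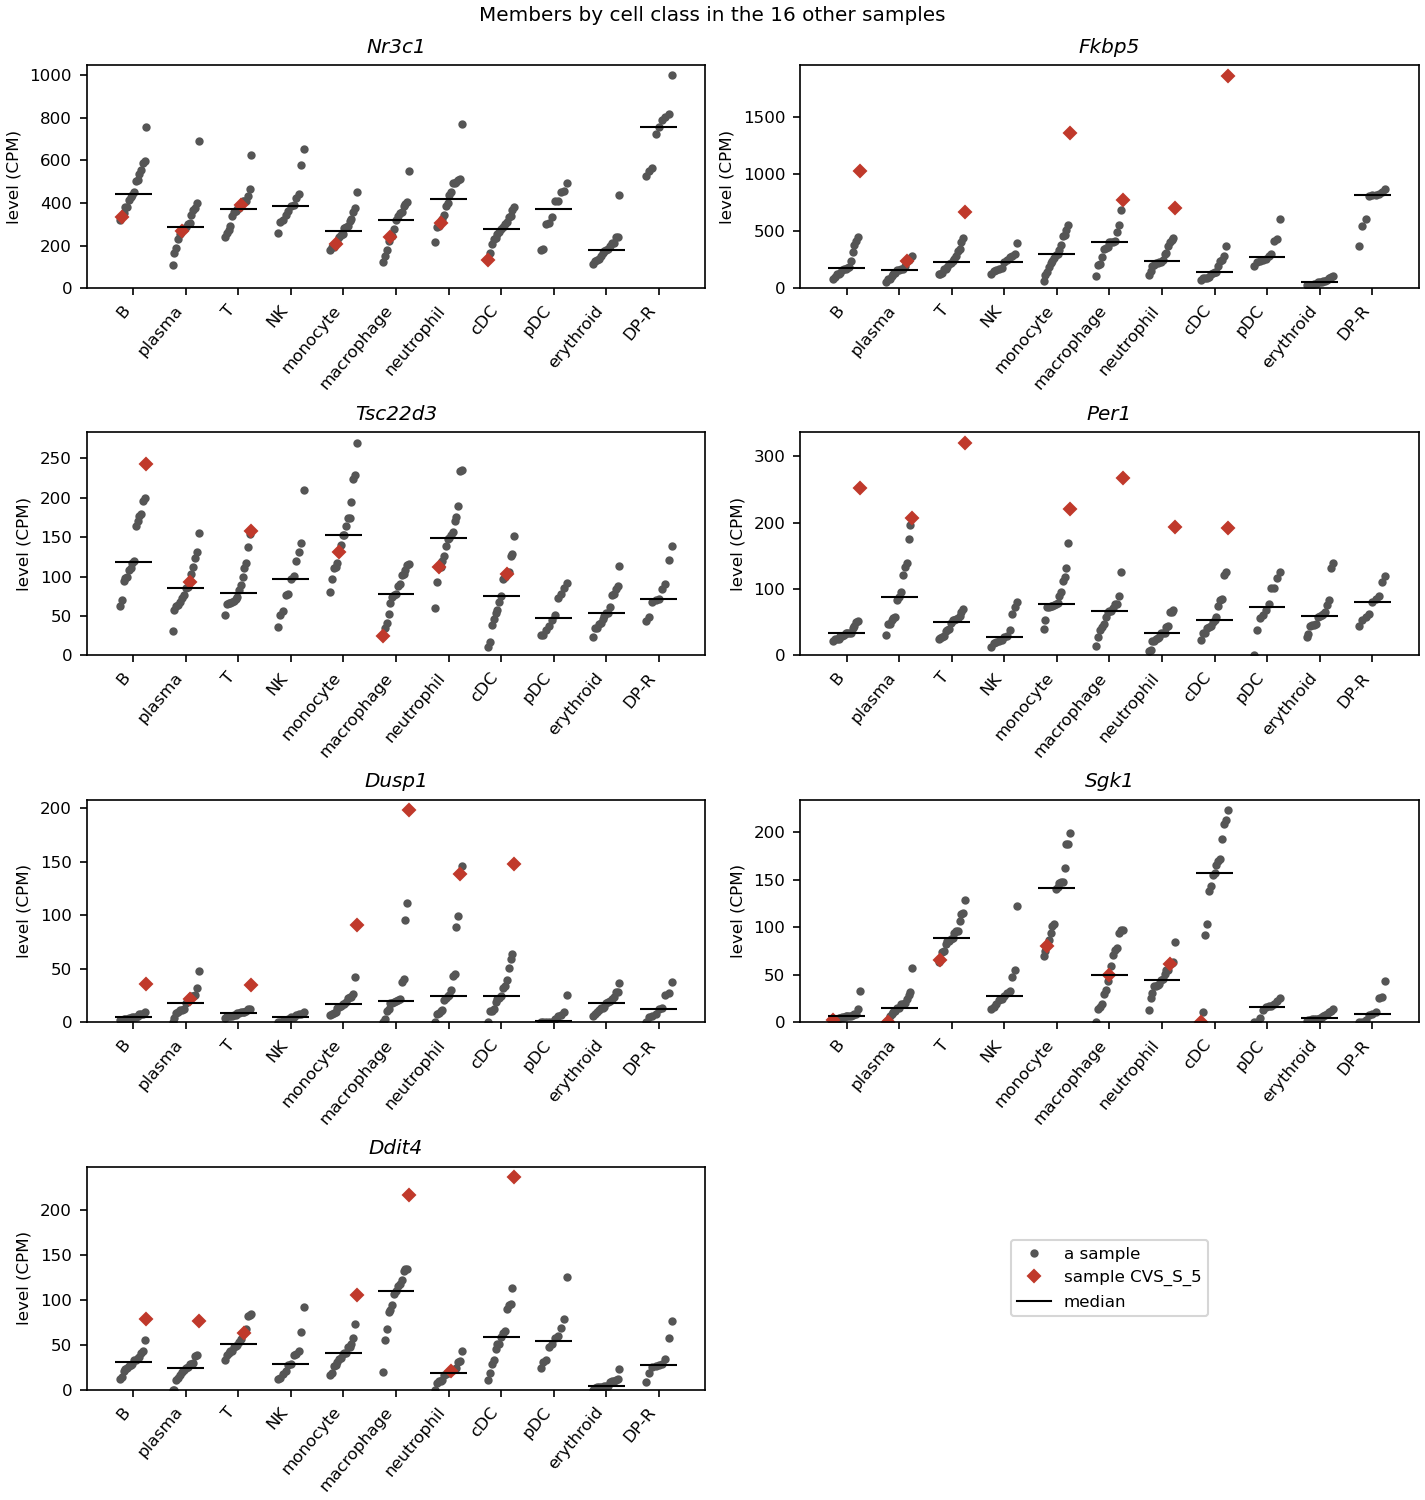
Level of each member by cell class in the 16 other samples (CPM), with 1 point per sample and class of at least 20 cells, a diamond for CVS_S_5 and a line at the median. Sgk1 is low in B-like and erythroid-like cells and high in T-like, monocyte-like and cDC-like cells, whereas Nr3c1 and Fkbp5 are highest in DP-R-like cells, whose source in these samples was not tested.

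Lastly, the genes most like each member were listed by Pearson correlation of log2(CPM + 1) over the 180 sums of tissue sample and class in the WT library, among 9331 genes. These sums share samples, depth and cell types, so the values are a description. Nr3c1 was closest to Hibadh (r = 0.83), Cnot2 (0.83) and Helz (0.82), and Fkbp5 to Rnf169 (0.75), Ano6 (0.75) and Tnfaip3 (0.74). Dusp1 had Gsr (0.53), Junb (0.52) and Fosl2 (0.51) nearest, and Sgk1 had Cyria (0.75), Cln3 (0.75) and Gm19765 (0.73). Ddit4 was closest to Slc23a2 (0.79), Sipa1l1 (0.78) and Exoc6b (0.77), Tsc22d3 to Xylt1 (0.64), Irak3 (0.63) and Arhgap26 (0.63), and Per1 to H3f3b (0.64), Gm49912 (0.61) and Tubb2a (0.60). Among the members, Fkbp5 was closest to Nr3c1 (0.64), Ddit4 (0.59) and Per1 (0.59), while Per1 was closest to Fkbp5 and then to Dusp1 (0.56), and Sgk1 and Tsc22d3 were not close to the receptor gene (-0.18 and -0.06).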

How the data were processed

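Processed UMI counts per cell and gene of both Parse experiments were used as deposited. The authors made these counts with the split-pipe pipeline on the Ensembl mouse genome mm10, and the labels also name Cell Ranger. The version of split-pipe, the annotation release and whether counting used strand were not stated in the sources. The 10x libraries were not analysed here. The members and gene lists were chosen with earlier results of these data known. Cells were kept from 500 up to 25000 UMIs if mitochondrial genes took no more than 15%. Those with the highest simulated-doublet scores were removed after clustering and naming, at each sample's rate of doublets expected from shared barcodes. This rate was 1.49% to 6.57% in the WT lobes, 0.51% to 3.21% in the 16 other samples and 4.57% to 5.50% in the Mini lobes. The study called a larger share of both Parse libraries doublets with a computational method. Cells were clustered (leidenalg 0.10.2, 2000 variable genes without the members and lists, 30 components, 20 neighbours, resolution 1.0) and named from marker lists, with naming thresholds set after the clusters were seen. Counts were summed per tissue sample and class of at least 20 cells, without ribosomal RNA genes, and tested with edgeR 4.0.16 (quasi-likelihood, TMM, filterByExpr, lobe as block, Benjamini-Hochberg over all genes, threshold 0.05) in R 4.3.3. SEs were taken as the log2 difference divided by the square root of F. The planned contrasts with an SP-CD4-like class were replaced by contrasts with mature SP-like cells, since no cluster was given that name. Levels of the 16 unmapped samples were described by range and median. Correlations used 100000 permutations, two-sided. In the text, genes of the lists were named only where the absolute log2 difference was at least 1 and the adjusted p below 0.05 in both experiments. At most 4 per list and comparison were taken, and not all of these are printed. All members were named. The 3 genes most like a member were taken among genes with a mean of at least 10 CPM over sums of at least 200000 UMIs. The fit was tested on simulated data. Alternatives were DESeq2 1.42.0, its size factors in edgeR, no filter, other doublet and cluster settings, thinning to 1000 UMIs, ribosomal RNA in the library size, no block, leaving out each lobe, and an exact sign-flip test over the 8 lobes. The kit interaction, its repeats with finer and coarser clusters and the correlations without CVS_S_5, without the 4 samples with most B cell markers in T-like cells or within samples named CVS were added after seeing the data.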

Additional observations from a re-analysis of the deposited data

Results flagged for a closer look

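In groups of 4 lobes, 77 combinations of member and class were examined and 4 held a lobe far from the others, where chance alone flags about 1 in 20. Sgk1 in DN-like cells of WT lobe 1 was at 4.54 CPM, with the other lobes between 6.32 and 6.57 CPM. Dusp1 in SP-CD8-like cells of WT lobe 3 was at 65.9 CPM, with the others between 10.98 and 19.8 CPM. Fkbp5 in mature SP-like cells of WT lobe 1 was at 293 CPM, with the others between 229.6 and 239 CPM. Sgk1 in DP-R-like cells of Mini lobe 2-A was at 10.2 CPM, with the others between 12.4 and 12.6 CPM.

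Among the 9 WT sublibraries, the one numbered 9, which was the smallest with 643 cells after quality control, stood apart for 3 of the 7 members. Its Per1 level was 106 CPM against 84.3 to 91.7 CPM in the others, its Dusp1 level 12.96 CPM against 15.0 to 16.6 CPM, and its Ddit4 level 43.1 CPM against 46.8 to 50.6 CPM.

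The change at the DP-S-like stage differed between the WT and the Mini lobes, by the interaction of kit and class, in 5 instances. The difference in change (WT minus Mini, log2) was -0.50 for Fkbp5 and -0.64 for Tsc22d3 between DP-R-like and DP-S-like cells. It was 0.57 for Fkbp5, 0.34 for Nr3c1 and 0.79 for Tsc22d3 between DP-S-like and mature SP-like cells. Over all 11193 genes, 921 and 982 differed at these steps, and 242 over the interval from DP-R-like to mature SP-like cells. With coarser clusters none of the 5 was called, and with finer clusters the 2 of Fkbp5 and Nr3c1 out of the DP-S-like class were.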

How the results depend on the processing

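No paired analysis was possible by the replicate numbers of the labels, because these mark sublibraries, which each hold cells of every tissue sample. The lobes did pair the classes, which were compared within lobes, with the lobe as a block. Of the calls of members, 9 of 21 in the WT and 16 of 22 in the Mini lobes held under all alternatives that gave a value. For its rise from DP-P-like to DP-R-like cells Sgk1 had 14 such alternatives in the WT and 13 in the Mini lobes. The other members had 15 at that step, and Sgk1 had no value in thinned cells. Of all member values, called or not, 570 of the WT and 467 of the Mini lobes kept their side of the threshold under the alternatives without reversing a call. A further 23 and 40 lost their call and 16 and 6 gained one. Values called in neither fit were counted as kept even where their sign changed. Sign changes with a call in either fit numbered 1 in the WT and 2 in the Mini lobes. The difference of Nr3c1 between DN-like and DP-P-like cells of the Mini lobes changed sign to -0.26 with 30% of cells removed as doublets and -0.22 with finer clusters, and that of Fkbp5 between mature SP-like and SP-CD8-like cells to -0.48 with finer clusters. The difference between the kits in Fkbp5 from DP-R-like to DP-S-like cells turned to 0.081 with coarser and 0.27 with finer clusters, that in Tsc22d3 from DP-S-like to mature SP-like cells to -0.081 and that in Dusp1 from DP-R-like to mature SP-like cells to -0.83 with finer clusters. The causes were not tested.

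With cells thinned to 1000 UMIs, which leaves out shallower cells and most UMIs, the genes called in the WT lobes were 1641 (DN-like to DP-P-like), 3995 (to DP-R-like), 2777 (to DP-S-like), 1445 (to mature SP-like), 2594 (DP-R-like to mature SP-like) and 462 (mature SP-like to SP-CD8-like), against 4112, 6884, 4807, 2533, 4616 and 1421. In the Mini lobes they were 1435, 4016, 2031, 1841 and 2889 in the same order, against 3584, 6574, 3205, 3311 and 4833, and 3 members were called from DP-P-like to DP-R-like cells (53.6% of all genes). Without the lobe block, 2638 genes were called from DN-like to DP-P-like cells of the WT lobes, with 3 members from DP-P-like to DP-R-like (47.8% of all genes) and 1 from DP-S-like to mature SP-like cells (19%), and in the Mini lobes 3 members at that last step (31.1%). With finer clusters, 1547 genes (13.7%) and 2 members were called in the WT lobes from DP-R-like to DP-S-like, 2627 genes (23.2%) and 2 members from mature SP-like to SP-CD8-like, and 1 member from DP-S-like to mature SP-like cells (16.1% of all genes), against 5 members there with coarser clusters (33%). Without the filter on low counts, 3 members were called from mature SP-like to SP-CD8-like cells (3.92% of 32793 genes). Leaving out single lobes gave 872 to 1191 genes (8.67% to 11%) and 1 to 2 members for that comparison, the lowest count without lobe 4 and the highest number of members without lobe 1. In the Mini lobes it gave 3 to 4 members from DP-S-like to mature SP-like cells (27% to 30.1% of all genes), with 3 without lobe 1-A.

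Over the 16 other samples, the median level in T-like cells was 279.4 CPM for Nr3c1 and 68.7 CPM for Sgk1 with ribosomal RNA in the library size, and 107.2 CPM for Sgk1 with 30% of cells removed. Nr3c1 was higher in T-like cells in 2 samples when thinned, with finer clusters or with ribosomal RNA. Tsc22d3 was so in 0 samples with 30% removed and in 1 with finer clusters or ribosomal RNA. Pearson's r lost its call for Ddit4 when thinned (0.33), for Nr3c1 without the farthest 2 samples (0.41), and for Dusp1 with 30% removed (0.44), with finer clusters (0.40), without the farthest 2 samples (0.34), without CVS_S_5 (0.38), without the 4 samples with most B cell markers in T-like cells (0.38) and among samples named CVS without it (0.22).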
